A study of Homo sapiens with 6 samples.

Results

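The 10 genes described here belong to the BCL2 family, whose proteins decide at the outer mitochondrial membrane whether a cell starts the intrinsic programme of apoptosis. They were chosen by symbol (BCL2L1, MCL1, BAX, BAK1, BID, BIK, BBC3, PMAIP1, BCL2L11 and BAD) from the 26255 gene symbols of the deposited tables, each was found once, and all 10 passed the filter on low values. RNA was sequenced from BxPC-3, an established human pancreatic ductal adenocarcinoma line, in 6 libraries. There were 2 libraries of untreated cells (Parent), 2 of cells that received a negative control (NC-1) and 2 of cells that received the microRNA miR-4711-5p, the treated cells being collected at 36 h. All groups are 1 cell line, and the labels do not say whether replicates came from separate cultures, so the p-values below measure the spread between these libraries only. The question was how the anti-apoptotic and pro-apoptotic genes of the family differed between cells given miR-4711-5p and each control.

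The family is divided by role. Anti-apoptotic members such as BCL-XL, made from BCL2L1, and MCL1 hold back the effectors BAX and BAK1, which form pores in the mitochondrial membrane and release cytochrome c. BH3-only proteins (BID, BIK, PUMA from BBC3, NOXA from PMAIP1, BIM from BCL2L11, and BAD) bind the anti-apoptotic members or the effectors and shift the balance towards cell death. BIM and PUMA bind all anti-apoptotic members, NOXA prefers MCL1, and BAD binds BCL-XL but not MCL1. Many members are also controlled after transcription, MCL1 by rapid protein turnover and BAD by phosphorylation, so the mRNA levels given here are not protein levels.

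A microRNA pairs with mRNA mainly through its seed, so the miR-4711-5p strand is shown with the sites that members of the family hold for it. The seed, positions 2 to 8 of the 23-nt mature sequence from RefSeq (build GRCh38.p14), is in capitals.
hsa-miR-4711-5p: uGCAUCAGgccagaagacaugag
Sites were searched as CTGATGCA (8mer), CTGATGC (7mer-m8) and TGATGCA (7mer-A1) on the transcribed strand of GENCODE v44 3′ UTRs lifted to GRCh37, the same build as hg19. The 8mer contains both 7mers and was counted once. Of 11185 tested genes with an annotated 3′ UTR, 2058 (18.4%) held a site in the longest 3′ UTR, and 2 of the 10 BCL2 family genes did, an anti-apoptotic gene and a BH3-only gene. The sites are shown in capitals with their surroundings, 5′ to 3′ on the strand of the transcript.
BCL2L1: tggacggcCTGATGCtccctccc
BCL2L11: actttttgTGATGCAactccagt
The BCL2L1 match was a 7mer-m8 at chr20:30252423-30252429 on the minus strand, position 1323 of the 1491-nt 3′ UTR of the canonical transcript, and it lay in the 3′ UTR of 11 of 13 protein-coding transcripts. The BCL2L11 match was a 7mer-A1 at chr2:111922550-111922556 on the plus strand, position 742 of a 4213-nt 3′ UTR, and it lay in 3 of 6 protein-coding transcripts. MCL1, BAX, BAK1, BID, BIK, BBC3, PMAIP1 and BAD held no 7mer or 8mer in any annotated 3′ UTR, and no canonical coding sequence of the 10 genes held one. A match is a description of letters only. Of the 2 genes with a match, BCL2L1 was lower with miR-4711-5p than in both controls and BCL2L11 was higher.

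The values are FPKM, in which the fragments of a gene are scaled to its length and to library size, so levels can be compared between genes. Summed FPKM was 550772 and 543074 in Parent, 515688 and 515348 in NC-1 and 493145 and 499659 with miR-4711-5p, without overlap between the groups. Per library, 16597 to 17305 genes were above 0. Depth relative to the first Parent library, estimated from the steps between low values, lay between 0.751 and 1.21. The deepest libraries were those of miR-4711-5p. All 6 markers of ductal epithelium (KRT7, KRT8, KRT18, KRT19, EPCAM and CDH1) were expressed, with sums of 5873 to 6247 FPKM in Parent, 5247 to 5534 in NC-1 and 5195 to 5247 with miR-4711-5p. These sums are carried by the keratins and hide single markers that differed between the groups. CDH1, which encodes E-cadherin, was at 114 and 117 FPKM in Parent, 109 and 109.6 in NC-1 and 28.3 and 30.9 with miR-4711-5p, and KRT19 was at 1699.6 and 1559, 1294 and 1254, and 890 and 912 FPKM in the same order. KRT18 was at 1251 FPKM in both miR-4711-5p libraries and at 963 to 1116 in the controls. Of 4 blood cell, 4 fibroblast, 3 acinar and 3 endothelial markers the sums stayed at or below 0.257, 2.44, 5.10 and 3.53 FPKM, and TYROBP and CELA3A were at 0 in all libraries. In bulk RNA, fewer cells with an mRNA and less of it per cell cannot be told apart.

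limma called 9 of the 10 family genes between miR-4711-5p and Parent at an adjusted p under 0.05, 5 higher (MCL1, BAK1, BBC3, PMAIP1 and BCL2L11) and 4 lower (BCL2L1, BID, BIK and BAD). Against NC-1 it called 8, 4 higher (BAK1, BBC3, PMAIP1 and BCL2L11) and 4 lower (BCL2L1, BID, BIK and BAD). Both comparisons use the same miR-4711-5p libraries and are given side by side. Of all 12040 genes tested, limma called 43.4% against Parent (18.7% higher and 24.7% lower) and 39.6% against NC-1 (18.4% higher and 21.2% lower). Between NC-1 and Parent it called 2 family genes, PMAIP1 higher and BAD lower, and 27.2% of all genes (12.1% higher and 15.1% lower). The 10 members were chosen with earlier results of these data known, so their counts beside these shares are no test of the family. Of the 9 other family genes tested, 22.2% were called against Parent and 33.3% against NC-1. The excess of lower calls over all genes depended in part on the scaling. With median-of-ratios rescaling the genes called went from 2255 higher and 2975 lower to 2494 and 2725 against Parent, and from 1456 and 1823 to 1597 and 1575 between the controls. The median log2 fold change of the 10 genes was 0.11 against Parent, -0.02 against NC-1 and 0.01 between the controls, beside -0.01, 0.00 and -0.01 over all genes. BH3-only genes were called in opposite directions in both comparisons. Without 1 library in turn the number called lay between 7 and 9 against Parent and between 4 and 7 against NC-1, lowest without the second miR-4711-5p library. The 5 higher calls against Parent became 3 without either Parent or without the second miR-4711-5p library, and the 4 lower calls against NC-1 became 1 without the second NC-1 library or without either miR-4711-5p library. Both treated libraries lay above all 4 controls for 4 family genes and below all 4 for 4, beside 23.8% and 26.3% of all genes tested.

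**Figure D1:**
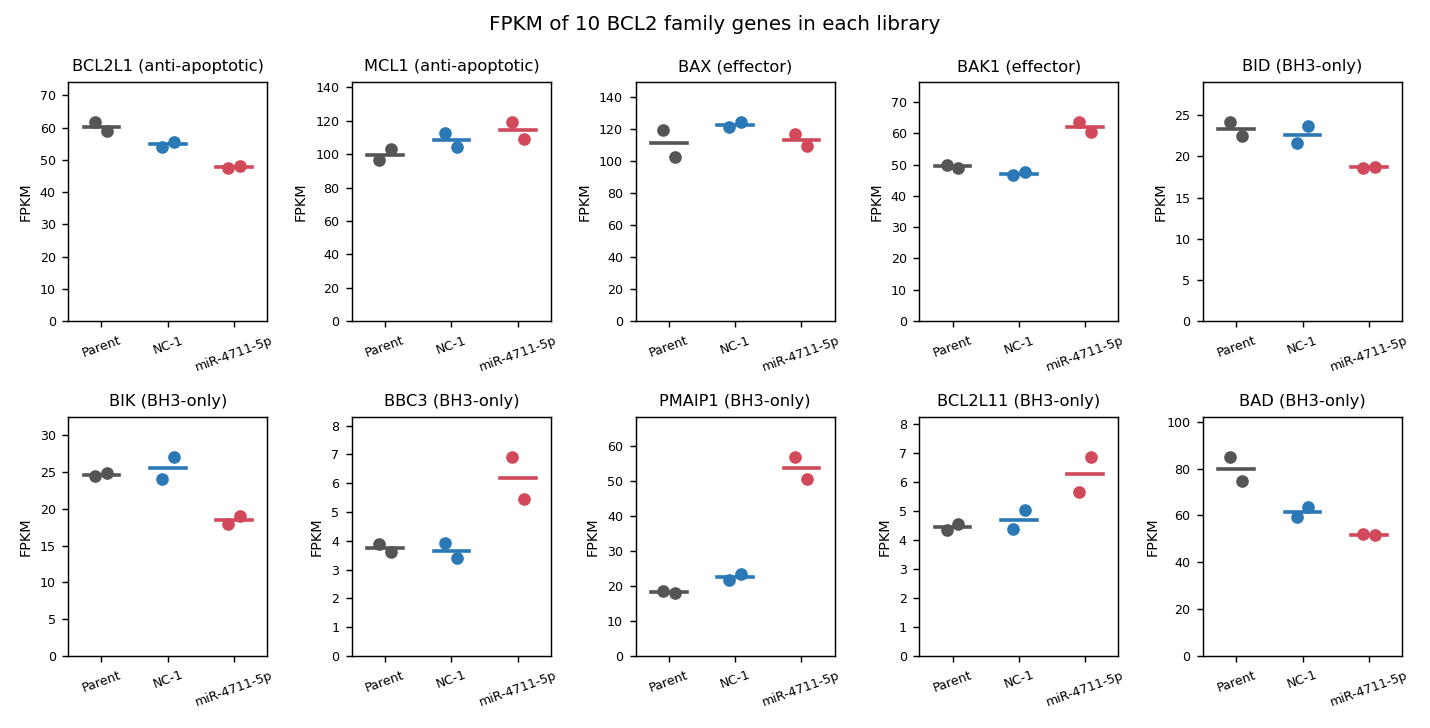
FPKM (y axis, linear, from 0) of each of the 10 genes in the 2 libraries of each group (points), with the mean of the group as a line. Both miR-4711-5p libraries lie above all 4 control libraries for BAK1, BBC3, PMAIP1 and BCL2L11, and below all 4 for BCL2L1, BID, BIK and BAD.

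BCL2L1 encodes BCL-XL, which binds BAX, BAK1 and most BH3-only proteins. Its level was 61.7 and 58.9 FPKM in the Parent libraries, 54.1 and 55.6 in the NC-1 libraries and 47.4 and 48.1 with miR-4711-5p. The groups did not overlap, with Parent highest and miR-4711-5p lowest. The mean was 60.3 ± 2.01 FPKM in Parent, 54.9 ± 1.10 in NC-1 and 47.8 ± 0.445 with miR-4711-5p (SD, n = 2). It fell 1.26-fold against Parent (log2 fold change -0.33, SE 0.05, limma adjusted p = 0.00131) and 1.15-fold against NC-1 (-0.20, limma adjusted p = 0.0133). Between NC-1 and Parent it differed by -0.13 on the log2 scale, which missed the threshold (limma adjusted p = 0.0704). The call against NC-1 was lost without the second NC-1 library (-0.18, adjusted p = 0.0597), without the first miR-4711-5p library (-0.19, adjusted p = 0.0812) and without the second (-0.21, adjusted p = 0.0627), in limma fits where the lone library was assumed to vary like the other groups. BCL2L1 lies at chr20:30252255-30311792 on the minus strand, and the antisense gene ABALON overlaps it on the other strand. ABALON was listed at 38.0 and 36.1 FPKM in Parent, 32.5 and 32.5 in NC-1 and 32.0 and 31.4 with miR-4711-5p. The library kit keeps strand but the strand setting used for counting was not given, so the reads of the overlapping pair may not have been separated, and its part in the result was not tested. Values per gene also do not separate the long, anti-apoptotic transcript of BCL2L1 from the short, pro-apoptotic one.

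MCL1, a short-lived protein that binds BAK1, BIM and NOXA, did not share this decrease. It was at 96.5 and 103 FPKM in Parent, 113 and 104 in NC-1 and 119 and 109 with miR-4711-5p. The treated libraries lay above Parent and overlapped NC-1. Against Parent MCL1 was higher by 1.15-fold (log2 fold change 0.19, SE 0.06, limma adjusted p = 0.0439), and against NC-1 the difference of 0.07 had a 95% interval of -0.08 to 0.22 (limma adjusted p = 0.394). The call against Parent sat near the threshold. It was lost in limma fits without either Parent library (adjusted p = 0.202 without the first and 0.0631 without the second), without either miR-4711-5p library (0.244 and 0.0518), with the replicate number as a block (0.0564), without a filter (0.0937) and without a trend in the spread (0.0828). MCL1 lies at chr1:150533371-150552214. Its neighbours ADAMTSL4 on the other strand and ADAMTSL4-AS1 on the same strand stayed at or below 3.07 and 0.168 FPKM. The ratio of MCL1 to BCL2L1 was 1.56 and 1.75 in Parent, 2.09 and 1.87 in NC-1 and 2.51 and 2.28 with miR-4711-5p, without overlap between the groups.

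Of the 2 effectors, BAX showed no call and BAK1 rose. BAX, a pore-forming effector that waits in the cytosol, was at 119.5 and 103 FPKM in Parent, 121 and 124 in NC-1 and 117 and 109 with miR-4711-5p. The treated values lay within the range of Parent and below NC-1. The log2 difference was 0.03 against Parent (95% interval -0.15 to 0.20, limma adjusted p = 0.793) and -0.12 against NC-1 (-0.29 to 0.05, limma adjusted p = 0.235), and it was 0.15 between NC-1 and Parent (limma adjusted p = 0.180). The direction against Parent changed without the second Parent library (-0.08) and without the first miR-4711-5p library (-0.02). The intervals leave room for a difference of either sign. BAX lies at chr19:49458072-49465055.

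BAK1, the effector that sits in the mitochondrial membrane already and is held by BCL-XL and MCL1, was at 49.9 and 49.0 FPKM in Parent, 46.5 and 47.5 in NC-1 and 63.5 and 60.4 with miR-4711-5p. Both treated libraries were above all 4 control libraries. BAK1 was 1.25-fold higher than in Parent (log2 fold change 0.32, SE 0.05, limma adjusted p = 0.00156) and 1.32-fold higher than in NC-1 (0.39, limma adjusted p = 0.000722). The controls differed by -0.07 (limma adjusted p = 0.299). The calls against both controls held without each library in turn. BAK1 lies at chr6:33540324-33548070, has the named pseudogenes BAK1P1 and BAK1P2, which have no entry in the tables, and is overlapped by GGNBP1, listed at 0 in all libraries.

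The BH3-only genes split evenly. PMAIP1, BBC3 and BCL2L11 rose against both controls, and BID, BIK and BAD fell against both. In the plot of log2 fold changes they take both ends of the family.

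**Figure D2:**
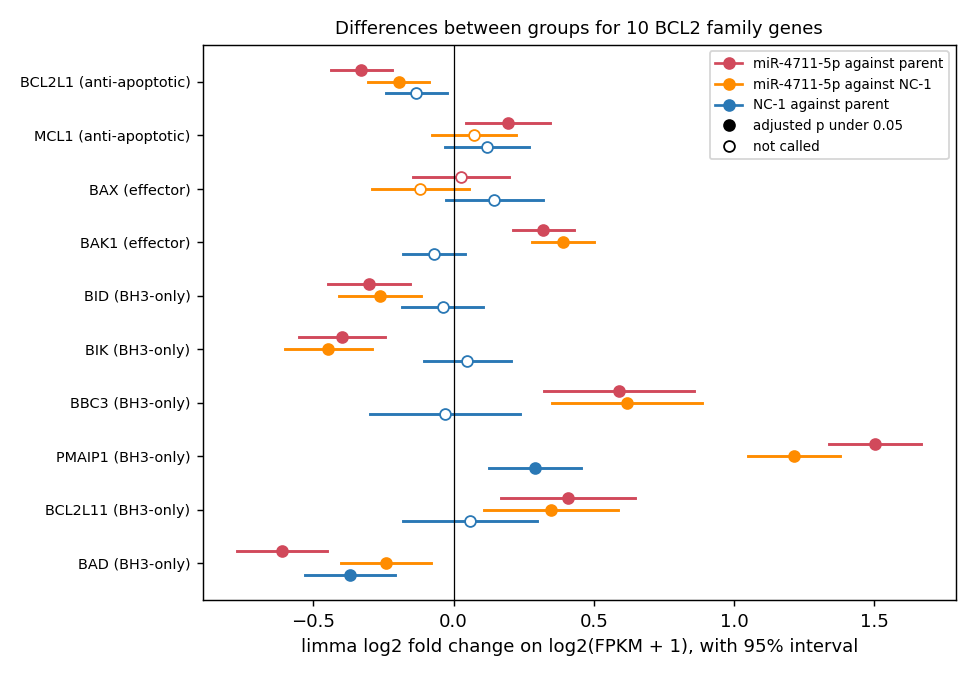
limma log2 fold change on log2(FPKM + 1) (x axis) of each of the 10 genes (y axis) in the 3 comparisons, with 95% intervals as bars. Filled points mark an adjusted p under 0.05. PMAIP1 at 1.504 and BAD at -0.61 against Parent are the extremes.

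PMAIP1 encodes NOXA, a BH3-only protein that binds MCL1 and speeds its breakdown. It was at 18.5 and 17.9 FPKM in Parent, 21.7 and 23.4 in NC-1 and 56.8 and 50.5 with miR-4711-5p. Both treated libraries were far above the highest control. PMAIP1 rose 2.94-fold against Parent (log2 fold change 1.504, SE 0.07, limma adjusted p = 1.01e-05) and 2.38-fold against NC-1 (1.21, limma adjusted p = 2.83e-05). Among 12040 genes it was number 87 from the largest increase against Parent and number 100 against NC-1. NC-1 was also 1.24-fold above Parent (0.29, limma adjusted p = 0.0233). That smaller call was lost without either Parent library (limma adjusted p = 0.0854 and 0.0995) or either NC-1 library (0.0532 and 0.112), while both calls with miR-4711-5p held without each library in turn. PMAIP1 lies at chr18:57567228-57571537.

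BBC3 encodes PUMA, which binds all anti-apoptotic members. It had the lowest mean of the 10 genes in every group, at 3.88 and 3.62 FPKM in Parent, 3.91 and 3.41 in NC-1 and 6.92 and 5.45 with miR-4711-5p. Both treated libraries were above all controls. The ratio of means was 1.65 against Parent (log2 fold change on log2(FPKM + 1) of 0.59, SE 0.11, limma adjusted p = 0.00551) and 1.69 against NC-1 (0.62, limma adjusted p = 0.00493). At such levels the added 1 FPKM makes the log2 value understate the change. The controls differed by -0.03 (limma adjusted p = 0.869). BBC3 lies at chr19:47724079-47736023.

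BCL2L11 encodes BIM, which binds all anti-apoptotic members and can activate BAX and BAK1 directly. It was at 4.36 and 4.56 FPKM in Parent, 4.37 and 5.03 in NC-1 and 5.66 and 6.86 with miR-4711-5p. The treated libraries were above all controls but differed more between themselves than the controls did. BCL2L11 was 1.40-fold higher than in Parent (0.41, SE 0.10, limma adjusted p = 0.0159) and 1.33-fold higher than in NC-1 (0.35, limma adjusted p = 0.0312). Its calls were among the least stable. Against Parent the call was lost without the first Parent library (limma adjusted p = 0.0849), the second (0.0588) or the second miR-4711-5p library (0.29, adjusted p = 0.101). Against NC-1 it was lost without the first or second Parent library (limma adjusted p = 0.0573 and 0.0570), the first NC-1 library (0.26, adjusted p = 0.159) or the second miR-4711-5p library (0.23, adjusted p = 0.184). BCL2L11, which holds the 7mer-A1 shown above, lies at chr2:111876955-111926021.

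BAD encodes a BH3-only protein that survival kinases switch off by phosphorylation. It was at 85.1 and 74.8 FPKM in Parent, 59.4 and 63.7 in NC-1 and 52.2 and 51.5 with miR-4711-5p. The groups did not overlap, and NC-1 lay between Parent and miR-4711-5p. BAD fell 1.54-fold against Parent (log2 fold change -0.61, SE 0.07, limma adjusted p = 0.000482) and 1.19-fold against NC-1 (-0.24, limma adjusted p = 0.0273). It also fell 1.30-fold in NC-1 against Parent (-0.37, limma adjusted p = 0.00928). The negative control thus lay nearer to miR-4711-5p than to Parent. The call against NC-1 was lost without the second NC-1 library (-0.19, limma adjusted p = 0.135), the first miR-4711-5p library (-0.25, adjusted p = 0.107) or the second (-0.23, adjusted p = 0.124), and the call between the controls was lost without the first NC-1 library (-0.32, adjusted p = 0.0601). BAD lies at chr11:64037302-64052176, overlapped on the other strand by GPR137. GPR137 was listed at 23.8 and 21.8 FPKM in Parent, 18.8 and 20.3 in NC-1 and 20.5 and 20.7 with miR-4711-5p. Like BAD, it was highest in both Parent libraries. The strand setting of the counts bears on this pair as on BCL2L1, and its part in the result was not tested.

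BIK, a BH3-only protein found mainly at the endoplasmic reticulum, was at 24.4 and 24.9 FPKM in Parent, 24.1 and 27.1 in NC-1 and 18.0 and 19.0 with miR-4711-5p. The treated libraries were below all controls. BIK fell 1.33-fold against Parent (log2 fold change -0.40, SE 0.07, limma adjusted p = 0.00281) and 1.38-fold against NC-1 (-0.45, limma adjusted p = 0.00193), calls that held without each library in turn. Its controls differed by 0.05 (limma adjusted p = 0.617). BIK lies at chr22:43506756-43525718.

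BID, which caspase-8 cleaves to link death receptors to the mitochondria, was at 24.1 and 22.4 FPKM in Parent, 21.7 and 23.6 in NC-1 and 18.6 and 18.7 with miR-4711-5p. Its treated libraries, too, were below all controls. BID fell 1.25-fold against Parent (log2 fold change -0.30, SE 0.06, limma adjusted p = 0.00719) and 1.21-fold against NC-1 (-0.26, limma adjusted p = 0.0138). The call against Parent was lost without the first miR-4711-5p library (-0.30, limma adjusted p = 0.0514). The call against NC-1 was lost without the second NC-1 library (-0.20, limma adjusted p = 0.0761), the first miR-4711-5p library (-0.26, adjusted p = 0.0803) or the second (-0.27, adjusted p = 0.0719). BID lies at chr22:18216904-18257536.

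These changes altered the order of the levels within the family. In Parent the order by mean FPKM was BAX, MCL1, BAD, BCL2L1, BAK1, BIK, BID, PMAIP1, BCL2L11 and BBC3, and only BAX and MCL1 overlapped as neighbours. NC-1 had the same order, with overlap between BID and PMAIP1. With miR-4711-5p, PMAIP1 stood at place 4 of 10 after place 8 in both controls, BAK1 at place 3 and BCL2L1 at place 6. In that group MCL1 and BAX, PMAIP1 and BAD, BID and BIK, and BCL2L11 and BBC3 overlapped as neighbours. PMAIP1 moved from the 82.8th percentile of all 26255 symbols in Parent to the 93.9th.

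The levels were also summed within each role. The anti-apoptotic sum (BCL2L1 and MCL1) was 158 and 162 FPKM in Parent, 167 and 159.9 in NC-1 and 167 and 157 with miR-4711-5p. The effector sum was 169 and 152, 168 and 172, and 180.2 and 169.8 FPKM, and the BH3-only sum was 160.4 and 148, 135 and 146, and 158 and 152 FPKM, in the same order of groups. The anti-apoptotic and BH3-only sums overlapped between Parent and miR-4711-5p, and the effector sum was above Parent in both treated libraries. That margin was narrow, with 169.75 FPKM in the second miR-4711-5p library and 169.37 in the first Parent library. The Parent libraries lay further apart from each other. Set against NC-1, the anti-apoptotic and effector sums overlapped and the BH3-only sum was higher in both treated libraries. The ratio of the 8 pro-apoptotic to the 2 anti-apoptotic genes was 2.09 and 1.85 in Parent, 1.81 and 1.99 in NC-1 and 2.03 and 2.04 with miR-4711-5p, within the range of the Parent libraries and above both NC-1 libraries. These sums and ratios are descriptions without a test, and a sum gives most weight to the genes of highest level.

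The make-up of the BH3-only sum differed between the groups. PMAIP1 made up 11.6% and 12.1% of it in Parent, 16.0% and 16.0% in NC-1 and 35.9% and 33.2% with miR-4711-5p. BAD made up 53.0% and 50.4% in Parent, 43.98% and 43.6% in NC-1 and 33.0% and 33.9% with miR-4711-5p. BAD was thus the leading BH3-only mRNA in the controls, and with miR-4711-5p PMAIP1 and BAD had like shares. Without BAD the sum was 73.5 to 82.6 FPKM in the 4 controls and 106 and 100.5 with miR-4711-5p. Without PMAIP1 it was 113 to 142 FPKM in the controls and 101 and 102 with miR-4711-5p, so that the direction of the sum depended on which of these 2 genes was in it.

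**Figure D3:**
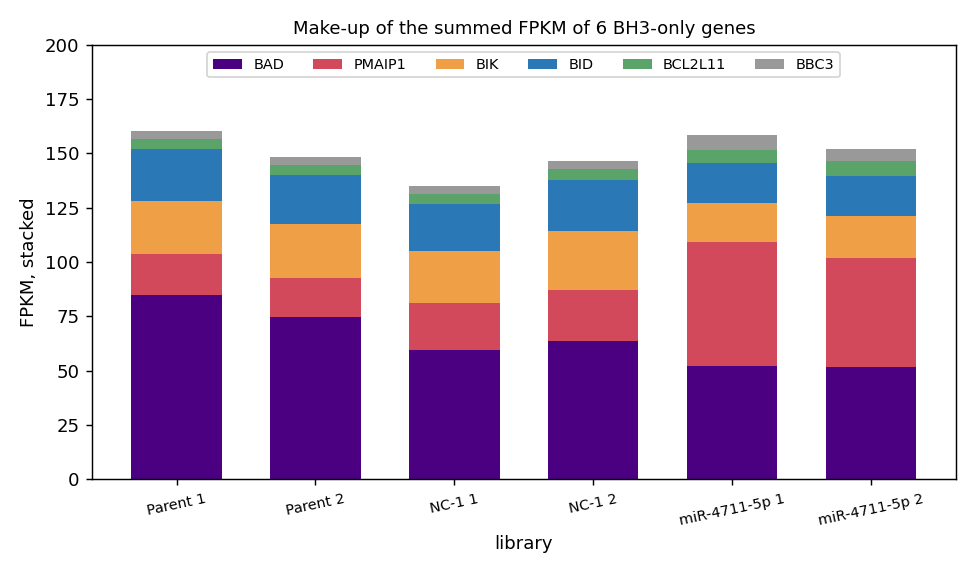
Stacked FPKM (y axis, from 0) of the 6 BH3-only genes in each of the 6 libraries (x axis). The whole bar stays between 135 and 160.4 FPKM while the PMAIP1 segment grows from 11.6% of it in the first Parent library to 35.9% in the first miR-4711-5p library, and the BAD segment shrinks.

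Ratios of binding partners differed by pair. PMAIP1 to MCL1, the pair of NOXA and its main target, was 0.192 and 0.174 in Parent, 0.192 and 0.225 in NC-1 and 0.477 and 0.462 with miR-4711-5p, and both treated libraries were above all 4 controls. BAX to BCL2L1 was 1.94 and 1.75 in Parent, 2.24 and 2.24 in NC-1 and 2.46 and 2.28 with miR-4711-5p, so most of its difference from Parent was also present in NC-1. BAD to BCL2L1 was 1.38 and 1.27, 1.10 and 1.14, and 1.10 and 1.07 in the same order, with miR-4711-5p overlapping NC-1. The ratios compare mRNA levels only.

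**Figure D4:**
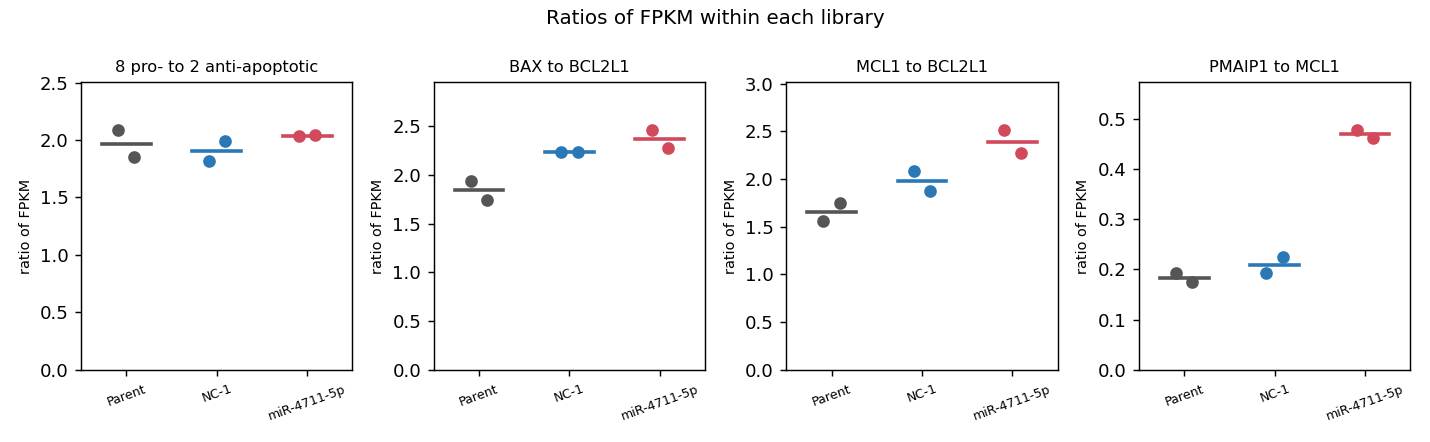
Ratios of FPKM (y axis, from 0) within each library (points, 2 per group) with the group mean as a line. The ratio of pro- to anti-apoptotic genes, taken over the 10 members only, lies between 1.81 and 2.09 in the 6 libraries. PMAIP1 to MCL1 is 0.462 or more with miR-4711-5p and 0.225 or less in the controls.

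The rest of the family was followed as a list of 13 genes, of which 9 passed the filter. Against Parent limma called 2 higher (BMF and BCL2L13) and 0 lower, with also 0 lower at an unadjusted p under 0.05, and against NC-1 it called 2 higher and 1 lower (BNIP3L). The calls made up 22.2% and 33.3% of the 9 genes, beside 43.4% and 39.6% of all genes tested. The median log2 fold change was 0.01 and 0.03. BMF, a BH3-only protein released from the cytoskeleton under stress, was at 2.12 and 2.23 FPKM in Parent, 3.05 and 3.34 in NC-1 and 6.01 and 5.58 with miR-4711-5p. It rose 2.67-fold against Parent (log2 fold change 1.10, limma adjusted p = 8.23e-05) and 1.82-fold against NC-1 (0.70, limma adjusted p = 0.000744), and followed PMAIP1 in log2 fold change among the BH3-only genes tested in both comparisons. BCL2L13, a mitochondrial member with a role in mitophagy, was at 13.6 and 14.3, 13.7 and 13.2, and 19.1 and 17.7 FPKM in the same order of groups, and rose by 0.38 and 0.42 on the log2 scale against Parent and NC-1 (limma adjusted p = 0.00237 and 0.00160). BNIP3L differed by -0.21 against NC-1, was named after its values were seen, and was not called without either NC-1 or either miR-4711-5p library. BCL2 itself was low, at 2.74 and 2.04 FPKM in Parent, 2.17 and 1.46 in NC-1 and 1.66 and 1.86 with miR-4711-5p, and was not called against Parent (-0.29, limma adjusted p = 0.182) or NC-1 (-0.02, limma adjusted p = 0.944). BCL2A1, BCL2L15, HRK and BNIP3 were under the filter. BCL2A1, an anti-apoptotic member known as a target of NF-kappaB, was at 0.351 and 0.502 FPKM in Parent, 1.17 and 0.410 in NC-1 and 1.63 and 1.67 with miR-4711-5p, above all controls. In the limma fit without a filter, which tested 19158 genes, it was higher than in Parent (log2 fold change 0.90, SE 0.21, adjusted p = 0.0334) and was not called against NC-1 (0.60, adjusted p = 0.105). That made 3 higher calls in this list against Parent.

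Downstream of the family lie the genes that act once the mitochondrial membrane has opened. All 16 on the list passed the filter. Calls made up 62.5% of them against Parent and 37.5% against NC-1, beside 43.4% and 39.6% of all genes tested. Against Parent limma called 3 higher and 7 lower with a median log2 fold change of -0.11, and against NC-1 it called 2 higher and 4 lower with a median of -0.03. The lower calls against Parent numbered 4 without the second Parent or the first miR-4711-5p library, those against NC-1 numbered 2 without the first miR-4711-5p library, and the higher calls against NC-1 numbered 1 without the first NC-1 library and 0 without the second or without either miR-4711-5p library. APAF1, the scaffold of the apoptosome that binds cytochrome c, was at 3.91 and 3.95 FPKM in Parent, 4.45 and 4.50 in NC-1 and 1.99 and 1.98 with miR-4711-5p. It fell 1.98-fold against Parent (log2 fold change -0.72, limma adjusted p = 0.000372) and 2.25-fold against NC-1 (-0.88, limma adjusted p = 0.000183), the largest decrease in the list. APAF1 holds a 7mer-A1 in the 3′ UTR, at chr12:99126626-99126632 on the plus strand, as well as a 7mer-m8 in the coding sequence. A site was not particular to genes that fell, since BIRC3 of the same list held a 7mer-m8 in its 3′ UTR and rose. Of tested genes with an annotated 3′ UTR, 18.4% held a site in the longest one. Whether the APAF1 site, shown here, acts was not tested.
APAF1: ttctgtctTGATGCAttcaaaat
BIRC3, an inhibitor of apoptosis protein, was at 2.30 and 2.46 FPKM in Parent, 6.24 and 6.19 in NC-1 and 7.65 and 8.001 with miR-4711-5p. Most of its difference from Parent was present with NC-1: it rose by 1.39 on the log2 scale with miR-4711-5p (limma adjusted p = 1.35e-05) and by 1.09 with NC-1 (limma adjusted p = 0.000371). Against NC-1 it differed by 0.29 (limma adjusted p = 0.0142), a call lost without either NC-1 library (adjusted p = 0.0568 and 0.0607) or either miR-4711-5p library (0.0595 and 0.0950). BIRC5, which encodes survivin and peaks in dividing cells, was at 42.9 and 41.96 FPKM in Parent, 32.7 and 33.3 in NC-1 and 28.1 and 28.7 with miR-4711-5p. It fell by 0.56 against Parent (limma adjusted p = 0.000103) and by 0.21 against NC-1 (limma adjusted p = 0.00939), the latter lost without the first miR-4711-5p library (adjusted p = 0.0661), and it was already lower in NC-1 than in Parent (-0.35, limma adjusted p = 0.00281). HTRA2, a protease freed from mitochondria, fell by 0.32 and 0.25 on the log2 scale (limma adjusted p = 0.0124 and 0.0355). Its call against Parent was lost without the second Parent library or either miR-4711-5p library (adjusted p = 0.0580 to 0.0727 in these limma fits), and its call against NC-1 without either Parent library, the second NC-1 library or either miR-4711-5p library (0.0550 to 0.167).

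Upstream, a list of 12 transcription factors known to act on BCL2 family genes was followed. It held 2 higher and 3 lower against Parent (median 0.00) and 3 higher and 1 lower against NC-1 (median 0.01). These were 41.7% and 33.3% of the list, beside 43.4% and 39.6% of all genes tested. The higher calls numbered 1 against Parent without the second Parent or either miR-4711-5p library, and 1 against NC-1 without the first NC-1 or the first miR-4711-5p library. The lower calls against NC-1 numbered 2 without the second NC-1 library. JUN, a component of AP-1, was at 29.3 and 25.3 FPKM in Parent, 31.3 and 30.6 in NC-1 and 59.4 and 54.0 with miR-4711-5p. It rose by 1.03 against Parent and 0.85 against NC-1 on the log2 scale (limma adjusted p = 8.07e-05 and 0.000225). TP63, a transcription factor that marks squamous epithelium, was at 60.2 and 67.1 FPKM in Parent, 55.0 and 60.1 in NC-1 and 38.99 and 36.6 with miR-4711-5p, and fell by 0.73 and 0.59 (limma adjusted p = 0.000241 and 0.000731). DDIT3, which encodes CHOP of the endoplasmic reticulum stress response, was 0.23 and 0.27 higher (limma adjusted p = 0.0209 and 0.0138). The DDIT3 calls were lost without the second Parent library (0.18, limma adjusted p = 0.102) or either miR-4711-5p library (0.138 and 0.0522) against Parent, and without the first NC-1 library (0.0776) or the first miR-4711-5p library (0.101) against NC-1.

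**Figure D5:**
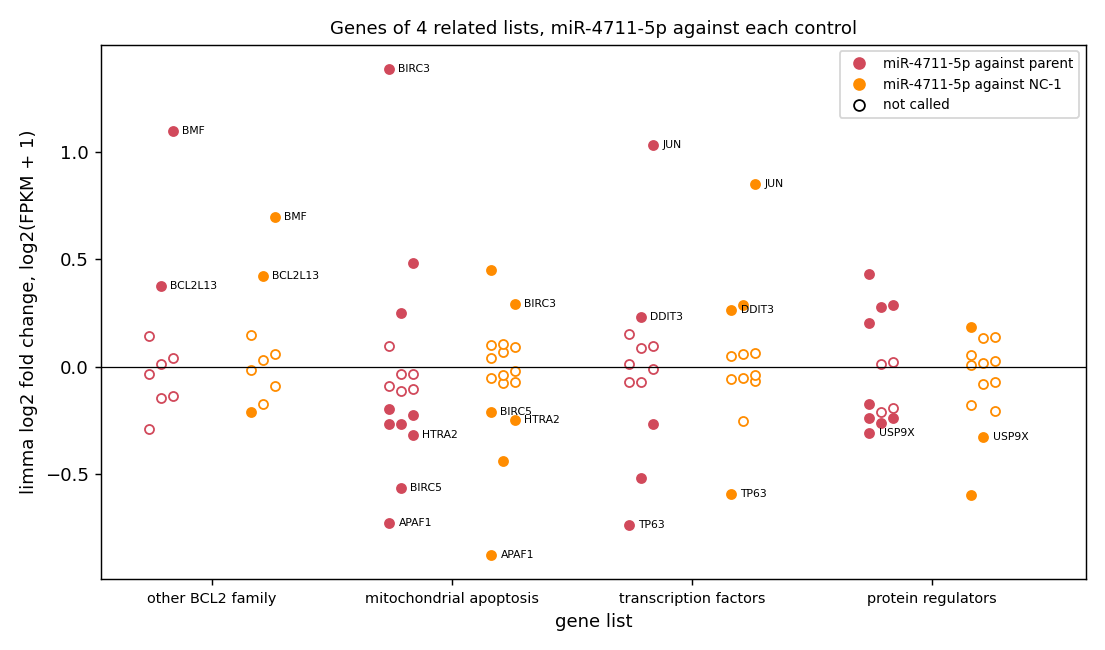
limma log2 fold change on log2(FPKM + 1) (y axis) of the tested genes of 4 related lists (x axis) for miR-4711-5p against Parent and against NC-1. Filled points mark an adjusted p under 0.05, and labels mark the genes named by rule, with BIRC3 at 1.39 and TP63 at -0.73 against Parent the highest and lowest in that comparison.

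Regulators of the BCL2 family proteins, 13 kinases, ubiquitin enzymes and a caspase, were called higher in 4 cases and lower in 5 against Parent (median -0.17), but higher in 1 (RPS6KA1) and lower in 2 (USP9X and MDM2) against NC-1 (median 0.01). The calls made up 69.2% of the list against Parent and 23.1% against NC-1, beside 43.4% and 39.6% of all genes tested. The counts against Parent varied with single libraries. They were 2 higher and 2 lower without the first Parent library, 2 and 3 without the second, 1 and 2 without the first miR-4711-5p library, and 3 and 2 without the second. Against NC-1 the higher count was 0 without the second NC-1 or either miR-4711-5p library, and the lower count was 1 without the first NC-1 or the second miR-4711-5p library. USP9X, a deubiquitinase known to stabilise MCL1, was the gene called in the same direction against both controls, at 15.0 and 13.5 FPKM in Parent, 15.2 and 13.8 in NC-1 and 11.8 and 10.9 with miR-4711-5p. It fell by 0.31 and 0.33 (limma adjusted p = 0.0154 and 0.0128), calls that were lost without the first library of the control concerned (adjusted p = 0.0914 for Parent and 0.0821 for NC-1) or without the second miR-4711-5p library (0.1003 and 0.0914). RPS6KA1, a kinase that phosphorylates BAD, and MDM2, a ubiquitin ligase, were named after their values were seen. RPS6KA1 differed by -0.24 from Parent and by 0.19 from NC-1 (limma adjusted p = 0.00639 and 0.0182), and MDM2 by -0.21 and -0.59 (limma adjusted p = 0.0974 and 0.00205).

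Seed matches in the named genes of these lists were found in genes that rose and in genes that fell. Of tested genes with an annotated 3′ UTR, 18.4% held a site in the longest one and 20.6% in any. The coding sequences of all genes were not searched, so no share stands beside the coding sites below. Besides APAF1, a 7mer-m8 lay in the canonical 3′ UTR of USP9X (8 of 8 protein-coding transcripts), JUN (2 of 2) and BIRC3 (2 of 5), an 8mer in that of MDM2 (1 of 18), and a 7mer-A1 in that of BCL2 (3 of 5). BIRC5 held a 7mer-m8 in the 3′ UTR of 1 of 6 transcripts, and BNIP3, under the filter, in that of 1 of 3. In canonical coding sequence, HTRA2 held an 8mer, BIRC3 and RPS6KA1 a 7mer-m8 and USP9X a 7mer-A1. BMF, BCL2L13, BNIP3L, BCL2A1, TP63 and DDIT3 held no 7mer or 8mer in any annotated 3′ UTR or in the canonical coding sequence.

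Between NC-1 and Parent, limma called 2 higher and 0 lower of the 9 other family genes (1 lower at an unadjusted p under 0.05), 4 higher and 4 lower of the 16 mitochondrial genes, 0 higher and 1 lower of the 12 transcription factors (1 higher and 2 lower at an unadjusted p under 0.05), and 4 higher and 2 lower of the 13 regulators. Of these lists, in that order, limma called 22.2%, 50%, 8.33% and 46.2%, beside 27.2% of all genes tested (12.1% higher and 15.1% lower). The counts rest on single libraries. Without the first Parent library the higher counts of the first, second and last list were 0, 2 and 1, without the second Parent library 2, 2 and 1, without the first NC-1 library 1, 2 and 1, and without the second NC-1 library 0, 3 and 2. Without either miR-4711-5p library, which enters through the shared spread, they were 1, 2 and 3. The lower mitochondrial count was 2 without the first NC-1 library, the lower regulator count was 1 without either Parent or the first NC-1 library, and the lower transcription factor count was 1 without the second NC-1 library and 0 without each other library.

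For the anti-apoptotic genes, the genes with the most similar profile over the 6 libraries were looked up by the root mean square difference of centred log2(FPKM + 1). For BCL2L1 they were STOML2 (0.0130), ZFP64 (0.0161) and SIPA1 (0.0181). The 10667 genes compared had an SD of at least that of BCL2L1 divided by 2, without an upper limit. For MCL1 they were KPNA4 (0.0146), JMY (0.0234) and CTHRC1 (0.0249) among 11594 genes, chosen in the same way by the SD of MCL1. With only 6 libraries in 3 groups, a close profile is a description of these libraries.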

How the data were processed

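Total RNA of 6 BxPC-3 libraries was made into stranded mRNA libraries and sequenced in single-end mode. The authors mapped the reads to hg19 and deposited FPKM per gene symbol, normalized for gene length and library size. The submitters' processing notes name TopHat2 2.1.1, Bowtie2 2.3.5.1, SAMtools 1.2, Cufflinks 2.2.1 and Cuffdiff. The paper's methods name other versions of TopHat, Bowtie2 and SAMtools, and Cuffnorm for the FPKM. Which of these gave the values used here is not known. The gene annotation and the strand setting were not given in the sources used here. Because the tables hold no counts, a count model could not be used and the absolute depth is unknown.

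A filter on a mean of 1 FPKM or more kept 12040 genes, and log2(FPKM + 1) values were compared in limma 3.58.1 (lmFit, contrasts.fit, eBayes with a trend) in R 4.3.3, all 3 groups in 1 fit with 3 residual and 4.15 prior degrees of freedom, two-sided, with Benjamini-Hochberg adjustment over all genes tested and a threshold of 0.05. With 2 libraries against 2, an exact permutation test of a single gene cannot go below p = 0.333. Folds are ratios of mean FPKM without a pseudocount. Other values were computed with Python 3.11.15, numpy 2.4.6 and pandas 2.3.3, and figures drawn with matplotlib 3.10.9. Symbols were matched to GENCODE v44 lifted to GRCh37, and 855 tested genes without a match stayed out of the site counts. The fit was tested on simulated data with known changes in the treated group. Of changes of 0.8 on the log2 scale it found 85% against Parent and 84.5% against NC-1. Of changes of 0.4 it found 41.5% and 41.9%, so differences of that size can stay uncalled. False calls made up 3.66% and 4.82% of its calls. No change was placed between the controls, so every call there was false. Whether these rates hold for the deposited values, where limma called 43.4% of genes against Parent and 39.6% against NC-1, was not tested.

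The members and lists were chosen with earlier results of these data known. Of each other list, up to 4 genes were named, those called in the same direction against both controls with the largest log2 fold change against Parent, and all 10 members were named. Profiles were compared with genes whose SD was at least that of the member divided by 2. The 13 alternatives were a pseudocount of 0.1 FPKM, no filter, median-of-ratios rescaling, a replicate block, only the groups compared, no trend, a required ratio of 1.5, and leaving out each of the 6 libraries. The same alternatives for the other lists and for the sums and ratios were added after seeing the data.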

Additional observations from a re-analysis of the deposited data

How the results depend on the processing

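The limits are those of 2 libraries a group, FPKM without counts, and mRNA values that do not separate isoforms. Requiring a ratio of at least 1.5 left 3 family genes called against Parent, 2 against NC-1 and 0 between NC-1 and Parent by limma, and without a filter 1 was called between NC-1 and Parent. Without 1 library in turn, limma called 7 to 9 family genes against Parent, 4 to 7 against NC-1 and 0 to 2 between the controls, where a lone library was assumed to vary like the other groups. Some uncalled differences changed sign. Without 1 library in turn, BAX against Parent lay between -0.080 (without the second Parent library) and 0.13, and was -0.02 without the first miR-4711-5p library. Between NC-1 and Parent, the same fits gave BID between -0.10 and 0.020, BIK between -0.033 and 0.13, BBC3 between -0.11 and 0.048, and BCL2L11 between -0.023 and 0.14. The cause was not tested. With the replicate number as a block, 8 family genes were called against Parent, 8 against NC-1 and 2 between the controls, and MCL1 against Parent was the member call lost (limma adjusted p = 0.0564). Differences between replicates correlated at r = 0.061, 0.003 and -0.009 across genes between the groups. The labels do not say whether the replicate number pairs libraries, and low correlations cannot show that it does not. Without a filter, BCL2L11 lost its call against Parent (limma adjusted p = 0.0542) and NC-1 (0.0881), BAD against NC-1 (0.0665) and PMAIP1 between the controls (0.0605). Fitting only the groups compared lost BCL2L11 against NC-1 (0.0574), and fitting no trend lost BAD against NC-1 (0.0539). Over 13 alternatives of 10 genes, 110 values kept their direction and call against Parent, 107 against NC-1 and 116 between the controls. A pseudocount of 0.1 FPKM and rescaling changed no count of called family genes.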
